A study of Mus musculus with 5 samples.

Results

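B cells were described here in single-cell RNA sequencing libraries of mouse lung immune cells taken after bleomycin, a drug that injures the lung and is followed by fibrosis. A barcode was counted as a B cell when the transcripts (unique molecular identifiers, UMIs) of *Cd79a*, *Cd79b* and *Ms4a1* summed to 3 or more with at least 1 of *Cd79a*, when *Cd3e* of T cells, *Siglech* of plasmacytoid dendritic cells and *Car4* were at 0, and when *Cd68* and *Mrc1* of macrophages summed to at most 1. *Cd79a* and *Cd79b* encode the signaling chains of the B cell receptor and *Ms4a1* encodes CD20. Of 52800 deposited barcodes, 44772 were kept, with 300 to 8000 genes, between 800 and 60000 UMIs and a mitochondrial share below 15%, and 1625 of these were B cells. The members were thus chosen by the measured UMIs of these 8 genes, whose levels are no result.

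There were 5 libraries, 1 from sham mice given PBS and 1 each from mice 3, 7, 14 and 28 days after intratracheal bleomycin. All mice carried *Ms4a3-CreER;R26-tdT*, in which the *Ms4a3* gene of granulocyte and monocyte progenitors drives a tamoxifen-dependent Cre that switches on the red reporter tdTomato, on a mixed C57BL6 and 129 background. The sham mice thus carried both alleles too. The study gave tamoxifen by gavage to label monocytes, and whether sham and bleomycin mice had it on the same schedule is not given in the sources used here. Adult mice of both sexes were used, with no age given for each library. Lungs were flushed with PBS through the right ventricle before digestion, and the number of mice behind a library is not given in the sources used here. With 1 library per time point there is no replicate, so no test was made between time points, and each interval covers counting error only. A difference between 2 libraries cannot be told apart from a difference between the mice, the digestion or the sequencing run.

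B cells are the lymphocytes that make antibody. A resting follicular B cell carries IgM and IgD (heavy chains *Ighm* and *Ighd*), recirculates between blood and lymphoid tissue with the help of CCR7, and bears CD23 (*Fcer2a*). After antigen contact B cells can switch to IgG or IgA, become memory cells or mature into plasma cells that secrete antibody. They also present peptides on MHC class II, and they respond to interferon through receptors that switch on a shared set of antiviral genes. The lung holds B cells in its vessels and tissue, and B cells of the B-1 and memory types lose much of their IgD and CD23.

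The libraries differed in depth. B cells held a median of 4116.5 UMIs in sham and 5651.5, 6651, 5296 and 3206 at days 3, 7, 14 and 28, and their UMIs summed to 1201955, 3984291, 1885151, 670319 and 1716965. The day 7 library stood apart, since it held exactly 10000 barcodes and none below 4624 UMIs, while the shallowest barcode of each other library held 500 to 502. Shallow B cells were thus not sampled at day 7. No B cell barcode occurred in more than 1 library, and over all barcodes any 2 libraries shared 22 to 41.

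The label was checked against genes outside the rule. The 17 further B lineage genes summed to 26908 CPM (UMIs of a gene for each 1000000 UMIs of the cells summed) in B cells of sham and to 33496, 45709, 16792 and 23996 CPM at days 3, 7, 14 and 28, against 376 to 513 CPM in T cells of the same libraries. None of the 17 was at 0 in any library. The light chain *Igkc*, up to 47.9% of which lay in 1 barcode, made up 47.3% to 81.7% of the sum. The 14 that are not immunoglobulin genes summed to 6857, 6260, 3814, 4835 and 6388 CPM in B cells, lowest at day 7, and to 217 to 293 CPM in T cells. *Ebf1*, a transcription factor that sets B cell identity, stood at 1619, 1146, 708, 1267 and 1917 CPM in the order of the libraries. The 10 T cell genes outside the rule summed to between 40.2 and 151 CPM in B cells, against 3980 to 7365 CPM in T cells. Of the 20 cells just inside the rule, with a marker sum of 3, 95% held a UMI of any of 7 other B cell genes, and of the 23 barcodes just outside, with a sum of 2, 73.9% did.

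Transcripts of other cells remained in the selected barcodes. Barcodes with 10 or more UMIs of a small panel for fibroblasts, mature dendritic cells, neutrophils, T cells, epithelium or macrophages numbered 9 in sham and 12, 51, 2 and 7 at days 3, 7, 14 and 28, which is 3.26%, 1.97%, 22.7%, 1.92% and 1.71% of the B cells. At day 7, 21 barcodes held 98.9% of the UMIs of the neutrophil genes *S100a8* and *S100a9*, and 18 barcodes held 96.5% of those of the dendritic cell genes *Fscn1*, *Ccl17* and *Ccl22*. The 10 macrophage genes summed to 3082, 2251, 3451, 4380 and 7145 CPM over the 5 libraries, led by *Apoe*, against 18249 to 49817 CPM in all other barcodes, with no member at 0. The 6 neutrophil genes, led by *S100a9*, summed to 2847, 568, 4624, 1827 and 250 CPM, and to 104, 61.5, 62.6, 167 and 76.0 CPM without the barcodes just counted. The 8 epithelial and erythroid genes summed to 1211, 156, 7300, 1235 and 956 CPM, of which *Scgb1a1* of club cells made up 7139 CPM at day 7, with 48.3% in 1 barcode. Without the barcodes just counted, the macrophage genes summed to 3051, 2240, 2843, 4404 and 7548 CPM and the epithelial and erythroid genes to 1222, 157, 9518, 1243 and 1014 CPM, with *Scgb1a1* at 9357 CPM at day 7. Values without these barcodes are given below beside several of the genes that they move, and beyond that their part in the results was not tested. A UMI floor, also used below, keeps only barcodes at or above the lowest UMI count of day 7. With it the 6 neutrophil genes summed to 7198, 638, 4624, 2230 and 426 CPM, and the 10 macrophage genes to 2580, 2306, 3451, 3949 and 4081 CPM. Values with the floor thus differ in transcripts of other cells as well as in depth.

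**Figure D1:**
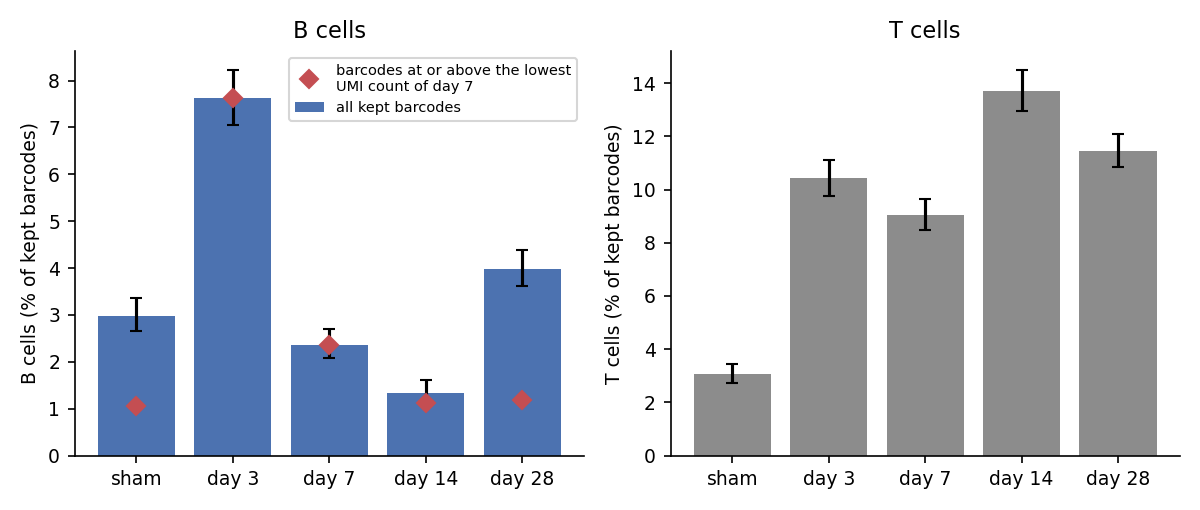
B cells (left) and T cells (right) as a percentage of all kept barcodes in each of the 5 libraries, with exact 95% binomial intervals, and diamonds for B cells among barcodes at or above the lowest UMI count of day 7. B cells took 7.62% of the day 3 library and 1.34% of the day 14 library, and the diamonds of sham and day 28 lie at 1.06% and 1.19%, below their bars.

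The share of B cells was highest at day 3 and lowest at day 14. B cells made up 2.99% of kept barcodes in sham (276 of 9238, exact Clopper-Pearson 95% interval 2.65% to 3.36%). On day 3 they made up 7.62% (610 of 8004, 7.05% to 8.22%), on day 7 2.37% (225 of 9493, 2.07% to 2.70%) and on day 14 1.34% (104 of 7757, 1.10% to 1.62%). The day 28 library held 3.99% (410 of 10280, 3.62% to 4.38%). The intervals of sham and day 7 overlap slightly, and all other pairs of libraries lie apart. T cells, counted with *Cd3e* and without the B cell markers, made up 3.07%, 10.4%, 9.06%, 13.7% and 11.4%. For each T cell there were 0.972 B cells in sham and 0.731, 0.262, 0.0978 and 0.349 B cells at days 3, 7, 14 and 28. In shares of a library, more of another cell type and fewer B cells cannot be told apart.

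The share of the sham library depended on the rule. *Car4*, which encodes a carbonic anhydrase, stood at 1034 CPM over all kept barcodes of sham and at 250, 182, 132 and 141 CPM at days 3, 7, 14 and 28. Its exclusion alone removed 103 barcodes from sham, 27.2% of those that met every other criterion, 83 of them for a single UMI, and 8.55%, 5.46%, 4.59% and 3.3% from the other libraries. T cells lost a like part, 25.7% in sham and 3.70% to 7.33% elsewhere, so that B cells per T cell hardly moved. With *Car4* allowed, B cells made up 4.10% of sham and 8.33%, 2.51%, 1.41% and 4.12% of the later libraries, and sham and day 28 were level. Under the UMI floor of the day 7 library the shares were 1.06%, 7.62%, 2.37%, 1.13% and 1.19%, and day 7 was then above sham and day 28. B cells for each T cell then numbered 0.360 in sham and 0.651, 0.262, 0.110 and 0.243 at days 3, 7, 14 and 28, so that sham was no longer highest in that ratio. The share of day 3 was highest under each of these rules, whereas day 14 was lowest except with the UMI floor, where sham was.

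Against sham, the genes of B cells were compared as log2 ratios of summed CPM, among those at 50 CPM or more in either library. At day 3, 89 of 2612 genes were 2-fold higher or more (3.41%) and 73 were 2-fold lower or more (2.79%). At day 7, the counts were 173 (6.43%) and 165 (6.13%) of 2692 genes. At day 14, they were 224 (7.90%) and 129 (4.55%) of 2835 genes, and at day 28, 150 (5.41%) and 114 (4.11%) of 2775 genes. With the UMI floor of day 7 in every library, 145, 208 and 233 genes were lower at days 3, 14 and 28, and 285 were higher at day 28. A gene that passed the 50 CPM floor only through the later library had to be higher there, so the counts and medians given for lists of genes describe the members that passed. The median log2 ratio over all these genes lay between -0.10 and 0.07. Of the genes that were higher, 65, 97, 119 and 63 at days 3, 7, 14 and 28 were also 2-fold higher in T cells of the same libraries. Of the genes that were lower, 23, 28, 31 and 41 were also 2-fold lower in T cells. The shares of all genes that were 2-fold higher or lower in T cells are not given here. The 4 comparisons share the sham library, so their values are given side by side and not set against each other.

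Several of the largest ratios rested on few barcodes. At day 7, *Ccl17*, a chemokine of mature dendritic cells, stood at 281 CPM against 0.832 CPM in sham, and *Fscn1*, *Krt8* and *Nupr1* stood at 102, 90.2 and 176 CPM against 0.832, 0.832 and 1.66 CPM. Without the barcodes rich in UMIs of other cells, they stood at 15.5, 7.37, 15.5 and 12.5 CPM at day 7. At day 28, the matrix genes *Fn1*, *Dcn* and *Col3a1* stood at 1401, 580 and 108 CPM, and at 113, 6.91 and 2.51 CPM without those barcodes, where 2 barcodes held 98.3% of the UMIs of 5 fibroblast genes. The macrophage genes *Mmp12*, *C1qa* and *C1qb* stood at 85.0, 74.6 and 73.1 CPM at day 14 against 0.832 to 1.66 CPM in sham, and at 782, 1383 and 1289 CPM in all other barcodes of day 14. Without the barcodes rich in UMIs of other cells they stood at 87.3, 75.0 and 72 CPM at day 14, and *C1qa* at 19.2 CPM at day 7, against 66.8 CPM with them. Of the 89, 173, 224 and 150 genes that were higher at days 3, 7, 14 and 28, 27, 58, 149 and 77 were as high in B cells as in all other barcodes of that library, or higher. Of the 73, 165, 129 and 114 that were lower, 25, 140, 90 and 84 were.

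Several follicular genes were lower in every bleomycin library than in sham. *Ighd* stood at 1213 CPM in sham and 716, 256, 473 and 391 CPM at days 3, 7, 14 and 28. Every bleomycin library was below sham, with a log2 ratio of -0.76 at day 3 (counting interval -0.85 to -0.67) and -2.24 at day 7 (-2.39 to -2.09). On day 14 the ratio was -1.36 (-1.54 to -1.18), and on day 28 it was -1.63 (-1.77 to -1.50). *Ighd* lies on the minus strand at chr12:113406604-113416324 (GENCODE vM21, mm10), next to *Ighm* at chr12:113418558-113422730, and both are made from 1 long transcript by splicing. *Ighm* was not lower, at 2725, 4303, 3728, 3327 and 4117 CPM. Single barcodes held 40.2%, 34.1% and 35.2% of the *Ighm* UMIs at days 3, 7 and 28, so these levels do not describe a typical cell, whereas the top barcode held at most 4.10% of the *Ighd* UMIs.

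*Fcer2a* (chr8:3681737-3694175, minus strand), the low-affinity IgE receptor CD23, stood at 392 CPM in sham and 159, 64.2, 122 and 130 CPM at days 3, 7, 14 and 28. All 4 bleomycin libraries were over 2-fold below sham, and day 7, at a log2 ratio of -2.61 (-2.91 to -2.32), was among the largest falls of that day. *Ccr7*, the receptor for lymph node chemokines, stood at 909, 572, 347, 295 and 170 CPM, below sham in each bleomycin library. Mature dendritic cells also express it, and without the barcodes rich in UMIs of other cells it stood at 933, 562, 223, 300 and 170 CPM, with day 7 below day 14. *Klf2*, a transcription factor that keeps lymphocytes recirculating, stood at 2570, 1206, 1186, 2004 and 1386 CPM.

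All 11 follicular genes stood at 50 CPM or more, and 2, 6, 3 and 4 were 2-fold lower at days 3, 7, 14 and 28. The shares of all genes that were 2-fold lower on those days were 2.79%, 6.13%, 4.55% and 4.11%. None of the 11 was 2-fold higher on any day, against 3.41%, 6.43%, 7.90% and 5.41% of all genes. The median log2 ratios of the 11 were -0.67, -1.12, -0.03 and -0.89, against medians over all genes of -0.10, -0.08, 0.07 and 0.03. The day 14 median shows that the set did not move as a block, since *Cr2*, *Bach2* and *Foxp1* stood at 145, 179 and 789 CPM there against 92.3, 180 and 780 CPM in sham. *Cxcr4*, the receptor for the stromal chemokine CXCL12, stood at 319, 429, 297, 488 and 507 CPM, above sham at days 3, 14 and 28, but at 293, 412, 297, 418 and 255 CPM with the UMI floor of day 7. In T cells, *Klf2* was also below sham in every bleomycin library, at 1704, 832, 451, 826 and 807 CPM. With the UMI floor of the day 7 library in all 5, *Ighd* stood at 1031, 676, 256, 377 and 189 CPM and *Fcer2a* at 282, 148, 64.2, 95.6 and 75.8 CPM, still lower than sham in each bleomycin library.

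**Figure D2:**
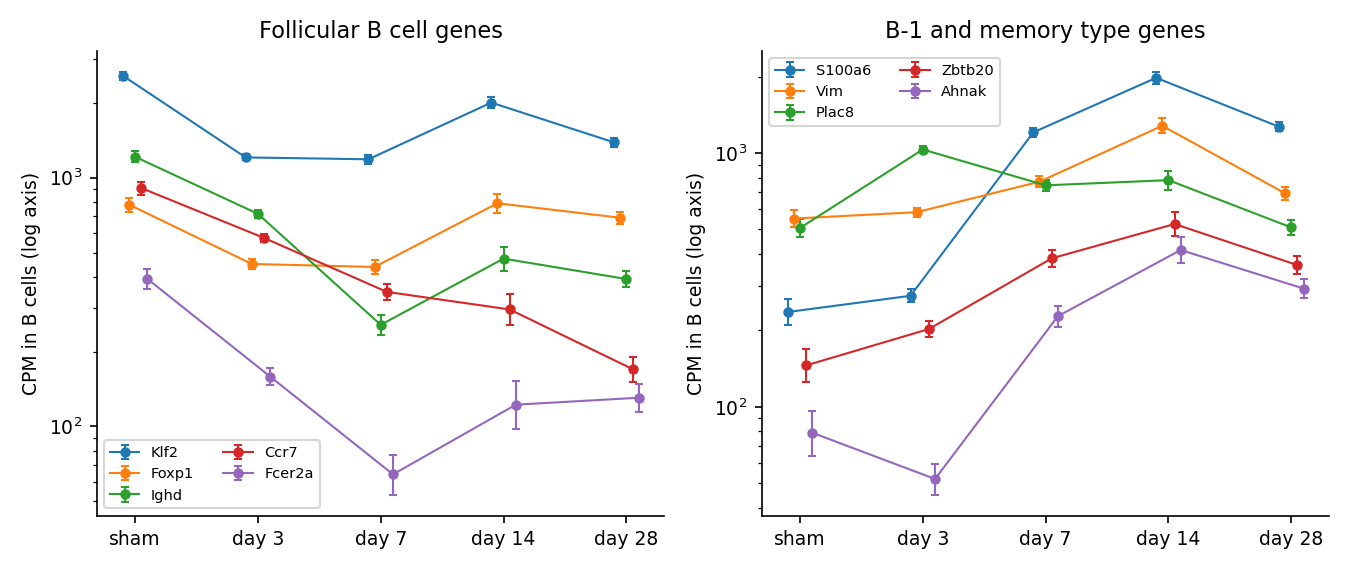
Levels of 5 follicular genes (left) and 5 genes of B-1 and memory type B cells (right), as CPM in B cells on a log axis, in each of the 5 libraries, with exact 95% Poisson intervals. *Ighd* and *Fcer2a* were lowest at day 7, and *S100a6*, *Zbtb20* and *Ahnak* were highest at day 14.

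Several genes of B-1 and memory type B cells were over 2-fold higher than sham at days 7, 14 and 28. *S100a6* (chr3:90612882-90624181, plus strand), a calcium-binding protein, stood at 236 CPM in sham and 274, 1206, 1978 and 1269 CPM at days 3, 7, 14 and 28. Days 7, 14 and 28 were above sham by log2 ratios of 2.35 (2.17 to 2.54), 3.07 (2.88 to 3.26) and 2.43 (2.25 to 2.61). Neutrophils also express *S100a6*, and without the barcodes rich in UMIs of other cells the levels were 77.4, 216, 789, 1910 and 991 CPM, with the libraries in the same order. In barcodes at or above the day 7 floor they were 593, 303, 1206, 2407 and 2543 CPM, so that day 3 lay below sham and day 28 was highest. That floor also raised the 6 neutrophil genes of sham, to 7198 from 2847 CPM, and *Fn1* at day 28, to 2811 from 1401 CPM. The part of other cells in the *S100a6* values with the floor was not tested. T cells of the same libraries held 1037, 663, 2237, 1505 and 1171 CPM of *S100a6*.

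*Zbtb20*, a transcription factor of B-1 and plasma cells, stood at 146, 203, 385, 525 and 362 CPM, and was higher in B cells than in T cells (69.5 to 180 CPM) or other barcodes (53.9 to 97.2 CPM) of every library. With the UMI floor of day 7 *Zbtb20* stood at 189, 209, 385, 600 and 376 CPM, less than 2-fold above sham at day 28. *Fcrl5*, an Fc receptor-like protein of memory, marginal zone and B-1 cells, stood at 4.99, 17.3, 47.7, 64.1 and 32.6 CPM and was at or below 1.22 CPM in T cells and all other barcodes. It was found in 5, 52, 62, 18 and 33 B cells. *Ahnak*, a large scaffold protein, stood at 79.0, 52.0, 228, 415 and 292 CPM. With the UMI floor it stood at 121, 54.1, 228, 478 and 535 CPM, less than 2-fold above sham at day 7. *Itgb1*, an integrin chain that fibroblasts also express, stood at 39.1, 32.4, 141, 134 and 118 CPM. Without the barcodes rich in UMIs of other cells, *Itgb1* stood at 40.0 CPM in sham and 74.7 CPM at day 28, which is less than 2-fold, and with the UMI floor at 61.7 and 211 CPM.

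Of 18 genes of this set, 7, 9, 11 and 9 reached 50 CPM at days 3, 7, 14 and 28. Of these, 1, 4, 7 and 5 were 2-fold higher than sham, against 3.41%, 6.43%, 7.90% and 5.41% of all genes. None was 2-fold lower, against 2.79%, 6.13%, 4.55% and 4.11% of all genes. The median log2 ratios of the members that reached 50 CPM were 0.08, 0.91, 1.78 and 1.31. Some passed only through the later library. All 18 together summed to 1902, 2413, 4027, 5750 and 3749 CPM, and to 1694, 2286, 3636, 5720 and 3260 CPM without the barcodes rich in other cells' UMIs. With the UMI floor of day 7 in every library the sums were 2741, 2547, 4027, 6699 and 6203 CPM, and day 3 was then below sham. Without that floor, T cells held 3294, 3507, 4877, 4579 and 3342 CPM of the same list and all other barcodes 5650 to 8449 CPM. The members did not move alike. *Plac8* was highest at day 3, at 1032 CPM against 507 CPM in sham, but with the UMI floor at 1096 and 784 CPM, which is less than 2-fold, and it was the member counted above at day 3. *Zeb2* stood at 111, 64.0, 78.5, 111.9 and 101 CPM and *Itgax* at 31.6, 4.27, 31.8, 47.7 and 33.2 CPM. Without the barcodes rich in UMIs of other cells, *Itgax* stood at 29.6 CPM in sham and 17.0 CPM at day 7. *Tbx21*, the transcription factor of T-bet positive memory B cells, held 2.12 CPM or less in each library.

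Part of the follicular and memory type genes also differed between cells of each library. Cells were thinned to 2000 UMIs and split by whether *Ighd* was then found. Of the 10 other follicular genes, 6 were higher in cells with *Ighd* in all 5 libraries, among them *Fcer2a*, *Cr2*, *Ccr7*, *Bach2* and *Cxcr4*. Of the 18 B-1 and memory type genes, 10 were higher in cells without *Ighd* in all 5 and none was higher in cells with it in all 5. Over all 10234 genes with a UMI in every library, 7.35% were higher in cells with and 4.55% in cells without *Ighd* in all 5, and among the 2426 with a mean of 50 CPM or more 13.8% and 6.18%. At that mean level the counts were 6 of 10 follicular genes and 5 of 9 B-1 and memory type genes. *Cxcr5* was higher in cells without *Ighd* in 4 libraries, and *Itgax* in cells with it in 4. *S100a6* stood at 520 CPM with and 2993 CPM without *Ighd* at day 14, at 425 and 1944 CPM at day 28, but at 1181 and 1217 CPM at day 7. *Fcer2a* still differed between libraries among cells with *Ighd*, at 428 CPM in sham and 196, 113, 227 and 216 CPM at days 3, 7, 14 and 28. *Ccr7* in those cells stood at 925, 648, 411, 520 and 215 CPM. These are descriptions of the same cells that gave the ratios, and cells with and without *Ighd* differed in depth, with medians of 4714 and 9218 UMIs at day 14.

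In cells thinned to 2000 UMIs, *Ighd* was found in 84.2% of B cells in sham (224 of 266, 95% interval 79.3% to 88.4%) and 70.1% on day 3 (424 of 605, 66.3% to 73.7%). The share was 36.9% on day 7 (83 of 225, 30.6% to 43.6%), 55.0% on day 14 (55 of 100, 44.7% to 65.0%) and 50.1% on day 28 (171 of 341, 44.7% to 55.6%). In T cells, which should lack it, the share was 0% to 1.20%. The intervals of days 14 and 28 overlap, and those of all other pairs lie apart. *Fcer2a* was found in 53%, 23.6%, 12%, 21.0% and 24.0% of B cells and in at most 0.358% of T cells. Without thinning, *Ighd* was found in 94.6%, 87.5%, 67.6%, 70.2% and 65.4%, and with the UMI floor of day 7 in every library in 79.5%, 67.8%, 36.9%, 47.6% and 29.2%, so that the order of days 7 and 28 depends on depth. Keeping barcodes with *Car4* gave 83.8%, 68.8%, 35.3%, 56.2% and 50.6%.

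**Figure D3:**
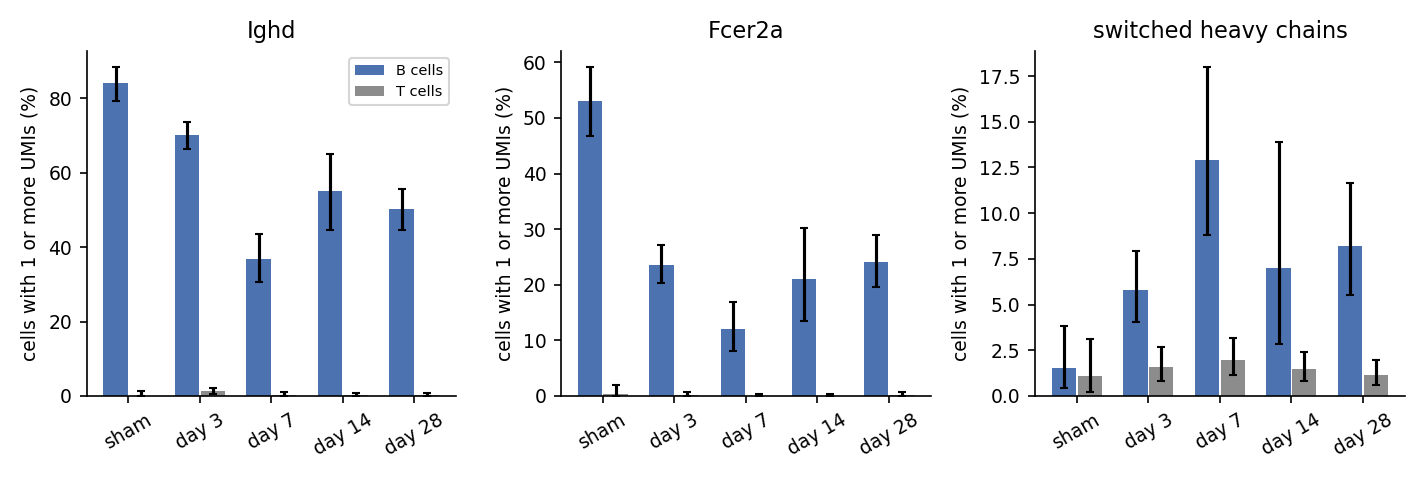
Share of B cells and of T cells with 1 or more UMIs of *Ighd*, *Fcer2a* or switched heavy chains (3 panels) after thinning each cell to 2000 UMIs, in each of the 5 libraries, with exact 95% binomial intervals. *Ighd* and *Fcer2a* were most often found in sham, and switched heavy chains were most often found at day 7, with wide intervals.

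Cells with switched heavy chains (IgG, IgA or IgE) were more often found at days 3, 7 and 28 than in sham. After thinning, 1.5% of sham B cells (4 of 266, 0.411% to 3.81%) held a UMI of a switched chain, against 5.79% on day 3 (4.06% to 7.95%) and 12.9% on day 7 (8.80% to 18%). On day 14, where the interval overlaps that of sham, it was 7.00% (2.86% to 13.9%), and on day 28 8.21% (5.53% to 11.6%). T cells held 1.08% to 1.98%, so the sham value is at the background. Among barcodes at or above the day 7 floor, the shares were 2.74% in sham (0.334% to 9.55%, 73 cells) and 6.53%, 12.9%, 6.35% and 10.1% afterwards, and every interval then overlaps that of sham. As a stricter count, cells with 3 or more heavy chain UMIs whose most abundant chain was switched numbered 1 of 274 in sham and 24 of 609, 22 of 220, 5 of 102 and 23 of 386 at days 3, 7, 14 and 28, or 0.365%, 3.94%, 10.0%, 4.90% and 5.96%. IgA (*Igha*) led in 1, 8, 14, 2 and 13 of these cells, and IgG2b (*Ighg2b*) led in 0, 11, 3, 3 and 6. No UMI of *Ighe* was found in B cells of any library.

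Levels of several antibody genes rested on few cells. *Jchain*, which joins secreted IgA and IgM, stood at 1301, 1167, 3495, 53.7 and 610 CPM, but 1, 5, 11, 1 and 1 cells with 10 or more UMIs held 99.9%, 99.8%, 99.6%, 80.6% and 98.4% of it. After thinning it was found in 0.376%, 0.992%, 9.33%, 4.00% and 2.35% of B cells, against 0.284% to 0.698% of T cells. Its level with the UMI floor of day 7 was 3444 CPM in sham and 3495 CPM at day 7. *Igha* stood at 2099, 1838, 5187, 152 and 101 CPM, and the top barcode held 99.9%, 72.8%, 28.0%, 87.3% and 12.6% of it. *Igha* stood at 5552 CPM in sham and 5187 CPM at day 7 with that UMI floor. *Ighg2b* stood at 1061 CPM at day 3, where 1 barcode held 95.1%, and was not seen in sham, which puts it at least 425-fold higher against 3 counts in the sham library. *Ighg2c* stood at 2071 CPM at day 7, with 73.2% in 1 barcode.

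The 10 plasma cell genes summed to 1671, 1504, 4089, 349 and 831 CPM. Day 7 was highest for 8 of the 10, a count for which the share of all genes is not given here. Of 7 that reached 50 CPM, 5 were 2-fold above sham at day 7, against 6.43% of all genes. Most of these 5 passed that floor only through day 7 and so had to be higher. The sums under the day 7 floor were 4103, 1695, 4089, 285 and 1609 CPM, and sham and day 7 were then level. *Prdm1*, the factor that drives plasma cell differentiation, stood at 6.66, 11.5, 54.1, 47.7 and 15.7 CPM, and *Irf4* at 28.3, 49.9, 75.3, 67.1 and 36.1 CPM. *Xbp1*, which expands the secretory pathway, stood at 61.6, 97.4, 135, 82.1 and 67.0 CPM. *Igkc*, the kappa light chain, stood at 15962, 21861, 37362, 7940 and 12399 CPM, with up to 47.9% in 1 barcode, at day 28. Lambda light chains were the more abundant light chain in 5.09%, 5.90%, 8.89%, 3.88% and 8.42% of cells, with overlapping intervals.

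**Figure D4:**
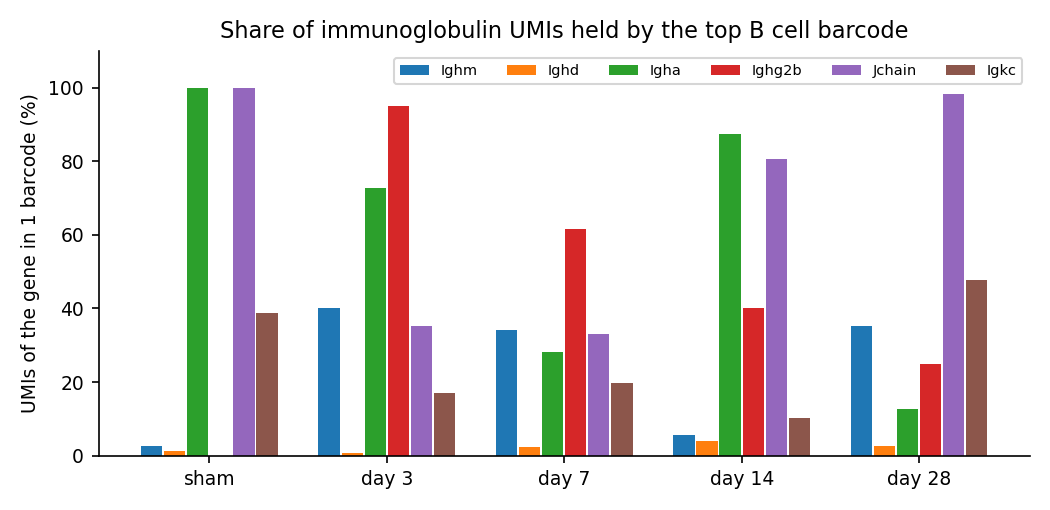
Percentage of the UMIs of each immunoglobulin gene that were held by the B cell barcode with most of them, in each of the 5 libraries. In sham 99.9% of *Igha* and of *Jchain* came from 1 barcode, while the top barcode held 1.30% of *Ighd*.

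Germinal centre genes were near 0. The 8 genes summed to 21.6, 31.4, 36.1, 59.7 and 43.7 CPM, and none reached 50 CPM. *Bcl6* stood at 10.8, 17.1, 18.6, 41.8 and 19.2 CPM. *Mki67* or *Top2a* of dividing cells was found in 4.89%, 2.98%, 5.33%, 4.00% and 2.64% of B cells, with overlapping intervals, against 4.30%, 7.82%, 12.7%, 6.58% and 4.16% of T cells. *Cd5*, a marker of B-1a cells, was found in 0.376% to 1.33% of B cells and 8.41% to 19.4% of T cells, so that B-1a cells were not distinguished by it here.

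Interferon-stimulated genes were high at day 3. Promoters of many such genes hold an interferon-stimulated response element, which the transcription factors switched on by interferon bind. The letters GAAANNGAAA (N is any base), searched on both strands, were found in the RefSeq promoter (GRCm38.p6, 250 bases before to 50 after the start) of 18 of the 23 genes, of 36 listed, that had one, or 78.3%, and in 943 of 27025 promoters in all, or 3.49%. Matches may overlap, and *Isg15*, *Irgm1*, *Ifit3* and *Ifit1* hold more than the 1 printed here. The letters were found in none of 6 follicular, 18 B-1 and memory type and 9 class II promoters. A match describes the letters only and shows no binding. The following windows, read along the gene's strand with the matched letters in capitals (TTTCNNTTTC where the match lies on the opposite strand), are shown for 5 genes that were higher at day 3 than in sham, picked after their values were seen. The search itself fixes the letters in capitals, and *Oas3* stood below 50 CPM in both libraries. They lie at chr4:156200877-156200906 (minus strand) for *Isg15*, chr5:120777715-120777744 (minus) for *Oas3*, chr11:48871425-48871454 (minus) for *Irgm1*, chr19:34583397-34583426 (plus) for *Ifit3* and chr19:34640794-34640823 (plus) for *Ifit1*, between 24 and 122 bases before the start.
Isg15: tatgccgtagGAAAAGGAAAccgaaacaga
Oas3: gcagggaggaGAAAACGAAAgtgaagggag
Irgm1: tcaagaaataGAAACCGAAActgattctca
Ifit3: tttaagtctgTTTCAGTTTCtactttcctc
Ifit1: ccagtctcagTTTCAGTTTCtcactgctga

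*Irf7* (chr7:141262706-141266481, minus strand), the transcription factor that amplifies type I interferon, stood at 26.6 CPM in sham and 460, 17.5, 7.46 and 8.15 CPM at days 3, 7, 14 and 28. It was found in 522 of 610 B cells at day 3 and in 21 of 276 in sham, a 17.3-fold difference in level (log2 ratio 4.11, 3.61 to 4.66). *Ifi27l2a* stood at 472, 2460, 709, 255 and 283 CPM. *Ly6a*, the surface protein Sca-1, stood at 127, 1950, 471, 17.9 and 456 CPM, and was found in 587 B cells at day 3. Under the day 7 floor it stood at 706 CPM at day 28, and *Irf7* at 46.3 CPM in sham and 452 CPM at day 3. *Ifit3*, of which the window is printed above, stood at 7.49, 184, 5.84, 0 and 2.33 CPM, and *Isg15*, a ubiquitin-like modifier, at 19.1, 152, 33.4, 5.97 and 7.57 CPM. Without the barcodes rich in UMIs of other cells, *Isg15* stood at 7.83, 101, 17.7, 4.59 and 6.28 CPM, and in sham *Ifit3* stood at 3.48 CPM and *Irf7* at 17.4 CPM. *Stat2*, which carries the interferon signal to the nucleus, stood at 15, 43.7, 10.6, 14.9 and 9.32 CPM. *Ly6e*, also on the list, hardly differed at day 3, at 1555 CPM in sham and 1811 CPM, and was lowest at day 14, at 527 CPM.

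Of the 34 genes in the data, from 36 listed, 33 were highest at day 3 and *Gbp2* was highest at day 14. The share of all genes that were highest at day 3 is not given here. At day 3, 23 of the 34 reached 50 CPM in either library, and 21 of these were 2-fold higher than sham, against 3.41% of all genes. The median log2 ratio of the 23 was 3.37, against -0.10 over all genes. Most of the 23 passed that floor only through day 3 and so had to be higher there. In the later libraries 7 reached that floor. Of these, 3, 0 and 2 were 2-fold higher at days 7, 14 and 28, against 6.43%, 7.90% and 5.41% of all genes. The list medians were 0.59, -0.46 and 0.04. The pair *Ly6a* and *Ly6e* were 2-fold lower at day 14, against 4.55% of all genes. Summed over the list, B cells held 2638 CPM in sham and 9737, 3032, 1287 and 2847 CPM at days 3, 7, 14 and 28. The same sums were 2210, 13680, 4587, 2312 and 2127 CPM in T cells and 890, 21304, 3154, 1715 and 1153 CPM in all other barcodes. The day 3 elevation was thus not confined to B cells, and the part of free RNA from other cells in it was not tested. At day 3, 26 of the 34 genes were higher in cells with *Ighd* and 8 in cells without it, with *Irf7* at 488 and 404 CPM. In sham, 18 were higher with and 13 without *Ighd*, and at day 28, 12 and 21. For single libraries the share of all genes is not given here. Of the 24 interferon-stimulated genes with a UMI in every library, 1 (4.17%) was higher with *Ighd* in all 5, against 7.35% of all such genes. In cells without it the count was 0, against 4.55%.

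**Figure D5:**
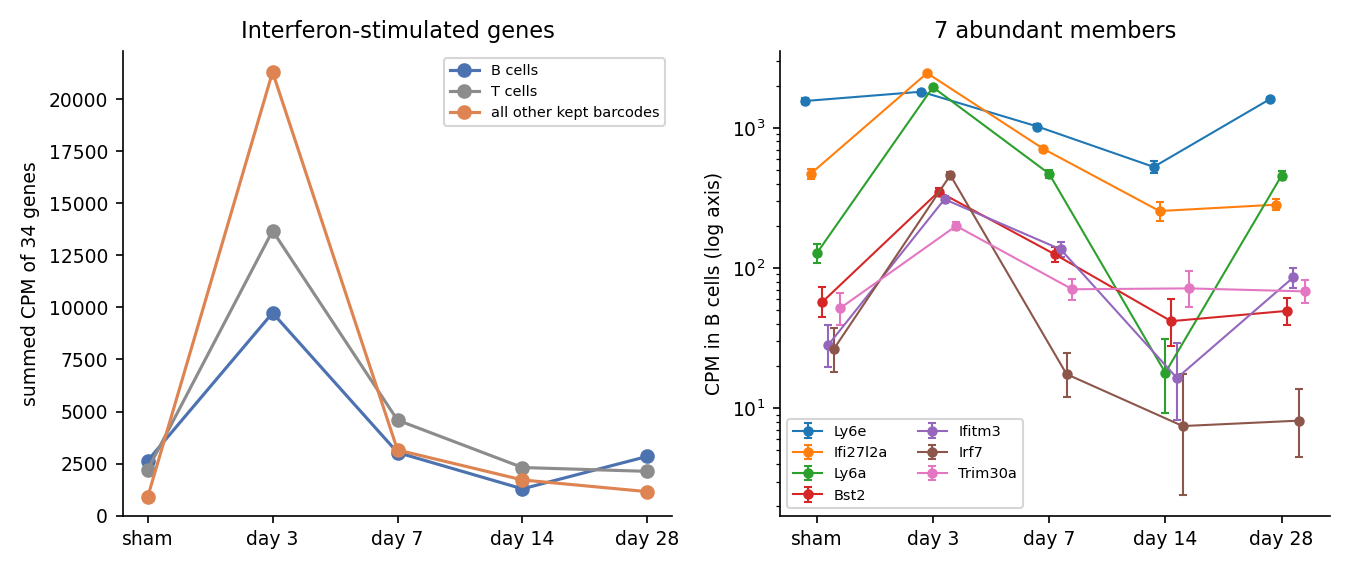
Summed CPM of 34 interferon-stimulated genes in B cells, T cells and all other kept barcodes (left), and 7 of the most abundant of them in B cells on a log axis with exact 95% Poisson intervals (right), in each of the 5 libraries. All 3 groups of barcodes were highest at day 3, and B cells held 9737 CPM there against 1287 to 3032 CPM in the other libraries.

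Most class II presentation genes were highest at day 3, and few differed from sham by 2-fold. *Cd74*, the invariant chain, stood at 16445 CPM in sham and 18541, 10064, 8618 and 9126 CPM at days 3, 7, 14 and 28. *H2-Aa*, *H2-Ab1* and *H2-Eb1*, which encode the class II chains, followed the same order, with *H2-Aa* at 5926, 7229, 4228, 3747 and 4003 CPM. Of the 14 genes, 11 were highest at day 3, as were 8 of 10 ribosomal protein genes, and the share of all genes is not given here. The class II list summed to 32200, 38520, 21991, 18810 and 20017 CPM. None of the 12 that reached 50 CPM was 2-fold higher than sham on any day, against 3.41%, 6.43%, 7.90% and 5.41% of all genes. At days 3, 7, 14 and 28, 0, 0, 2 and 1 were 2-fold lower, against 2.79%, 6.13%, 4.55% and 4.11% of all genes. The medians of the 12 were 0.23, -0.51, -0.63 and -0.49. *H2-Oa*, which modulates peptide loading, stood at 276, 375, 164, 112 and 188 CPM, and was 2-fold lower at day 14. Within libraries, 8 of the 14 were higher in cells with *Ighd* in all 5, against 7.35% of all genes with a UMI in every library. *H2-DMb2*, of the peptide-loading complex, stood at 1036, 1009, 525, 516 and 524 CPM, and the costimulator *Cd86* at 95.7, 171, 113, 131 and 83.9 CPM. T cells held 513 to 1133 CPM of the list except at day 7, where they held 7792 CPM.

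Receptor signaling genes differed from sham about as often as all genes. Of 17, 16, 16 and 16 at 50 CPM or more, 1, 1, 2 and 1 were 2-fold higher at days 3, 7, 14 and 28, against 3.41%, 6.43%, 7.90% and 5.41% of all genes. Of the same genes 0, 1, 1 and 1 were 2-fold lower, against 2.79%, 6.13%, 4.55% and 4.11%, and the medians lay between -0.39 and 0.09. *Fcgr2b*, the inhibitory IgG receptor, was the member above 2-fold on every day, at 30.0 CPM in sham and 86.3, 75.9, 116 and 76.3 CPM afterwards. *Syk*, the kinase next to the receptor, stood at 300, 210, 208, 576 and 288 CPM, and *Malt1* at 59.1, 49.4, 52.0, 145 and 39.6 CPM. Among survival genes, *Bcl2l11*, which encodes the pro-apoptotic BIM, was also 2-fold higher on all 4 days, at 31.6, 84.6, 84.3, 146 and 91.4 CPM, though T cells held 81.5 to 177 CPM. With the UMI floor of day 7 it stood at 50.7 CPM in sham and 90.9, 84.3, 142 and 85.7 CPM afterwards, over 2-fold at day 14 alone. The receptor for the survival factor BAFF, *Tnfrsf13c*, stood at 226, 155, 113, 163 and 77.5 CPM. Of 8, 6, 8 and 6 heat shock genes at 50 CPM or more, 3, 0, 5 and 0 were 2-fold above sham at days 3, 7, 14 and 28, against 3.41%, 6.43%, 7.90% and 5.41% of all genes, with medians of 0.84, 0.79, 1.48 and 0.30. All 10 listed summed to 2276, 4537, 3904, 5899 and 2794 CPM. *Dnaja1* stood at 104, 292, 190, 585 and 122 CPM, and *Hsph1* at 9.15, 55.0, 35.5, 186 and 22.1 CPM, with 13.4, 69.1, 58.3, 218 and 21.2 CPM in T cells. *Egr1*, an early response gene, stood at 69.9, 86.6, 322, 264 and 363 CPM, and at 30.4, 84.4, 228, 216 and 294 CPM without the barcodes rich in UMIs of other cells. Under the UMI floor of day 7 *Egr1* stood at 137, 89.4, 322, 240 and 302 CPM, lower at day 3 than in sham and less than 2-fold higher at day 14.

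B cells were also set against T cells of the same 5 libraries, the only comparison here with replicates, with the library as a block. By edgeR's quasi-likelihood test with Benjamini-Hochberg adjustment, 1476 of 11078 genes (13.3%) were higher in B cells and 1660 (15%) were lower. The genes of both rules were left out, and lineage genes differ by the choice of cells. Outside the lineage lists, *Il5ra*, the interleukin 5 receptor, stood at 8.37 to 31.5 CPM in B cells and at 0 in T cells of all 5 libraries (log2 difference 9.23, adjusted p = 0.000306). *Cacna1e*, a calcium channel, stood at 19.7 to 74.9 CPM and at or below 0.130 CPM (log2 difference 9.35, adjusted p = 5.99e-07), and *Il12a*, a subunit of interleukins 12 and 35, at 7.98 to 25.7 CPM and at 0 (log2 difference 8.56, adjusted p = 0.000627). The predicted gene *Gm43603* stood at 132 to 275 CPM and at or below 0.202 CPM (log2 difference 10.6, adjusted p = 2.58e-08, higher in 5 of 5 libraries, as were the other 3). Among the lowest, *Ggt1*, a gamma-glutamyltransferase, was at 0 in B cells and at 4.40 to 15 CPM in T cells (log2 difference -8.21, adjusted p = 0.00209).

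All 14 class II genes were higher in B cells by that test, with a median log2 difference of 4.36, as were 16 of 18 receptor signaling genes (2.99) and 10 of 11 follicular genes (1.44). Over all genes, 13.3% were higher in B cells, 15% were lower and the median was -0.01. Of the 34 interferon-stimulated genes, 16 were lower in B cells and 1 was higher, with a median of -0.62. Of 18 cell cycle genes, 7 were lower and none was higher. The B-1 and memory type genes went both ways, with 7 higher and 6 lower of 18. None of the 10 ribosomal protein genes differed by edgeR's quasi-likelihood test.

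The reporter was found in B cells too. After thinning, its transcript was found in 13.2%, 8.26%, 16.9%, 22.0% and 17.6% of B cells and in 22.6%, 13.1%, 24.0%, 41.2% and 21.0% of T cells, at 73.8 to 200 CPM in B cells and 200 to 940 CPM in all other barcodes. B cells are not of the *Ms4a3* lineage, and T cells held it more often in every library, so no share of labeled B cells was read from it.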

How the data were processed

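The authors mapped 10x Genomics 3′ libraries of 5 samples with Cell Ranger 6.0.0 to mm10 and deposited the raw UMI counts of each barcode and gene. The file headers name software 3.1.0, so the version is uncertain. Depth was 89769386 to 167506186 UMIs a library. Counts were read with Python 3.11.15 and scipy 1.17.1. Cells were chosen by the rule in the text, UMIs were summed per library, and levels are UMIs for each 1000000 of the chosen cells (CPM). Shares have exact (Clopper-Pearson) 95% binomial intervals, levels exact Poisson intervals and ratios exact binomial intervals. Counts of 0 were set to 3 counts for ratios. B and T cells were compared with edgeR 4.0.16 (R 4.3.3, TMM, filterByExpr, library as block), and DESeq2 1.42.0 was an alternative. On simulated data for B cells against T cells, fitted with the block on the 9827 genes that passed filterByExpr by cell type alone (11078 passed in the reported fit), 61% of 2-fold and 96% of 4-fold differences were recovered, with 4 false among 161 calls. Doublets were scored with Scrublet in scanpy 1.11.5 and kept. An alternative removed the highest scores, 0.8% for each 1000 barcodes, and with them 10, 24, 8, 4 and 8 B cells.

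The B cell rule and the 26 gene lists were chosen with earlier results of these data known. Named genes are the 5 largest differences each way, 3 more among genes as high in B cells as in other barcodes, the 5 largest each way against T cells, and up to 4 (8 for interferon, immunoglobulin and B lineage) of each list by mean level. Other genes named were chosen after their values were seen, namely *Ahnak*, *Bach2*, *Bcl2l11*, *Ccl22*, *Ccl4*, *Cd5*, *Cd86*, *Cr2*, *Cxcr5*, *Dnaja1*, *Egr1*, *Fcgr2b*, *Fcrl5*, *Gbp2*, *H2-DMb2*, *H2-Oa*, *Ifit1*, *Ifit3*, *Il10*, *Irgm1*, *Isg15*, *Itgax*, *Itgb1*, *Malt1*, *Mki67*, *Oas3*, *Prdm1*, *Stat2*, *Tbx21*, *Tlr7*, *Top2a* and *Zeb2*. Some genes of the lists are not reported here by name.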

Additional observations from a re-analysis of the deposited data

How the results depend on the processing

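No paired analysis was possible because each time point has 1 library, and in B cells against T cells the library is already the block. In the order sham, day 3, day 7, day 14 and day 28, the share of B cells moved beyond its interval with no *Cd68* or *Mrc1* UMI allowed (2.13%, 6.57%, 1.89%, 1.02% and 2.81%), with the UMI floor of day 7 (1.06% in sham, 1.19% at day 28), with doublets removed (4.47% at day 28), with *Car4* allowed (4.10% in sham, 8.33% at day 3) and without barcodes rich in UMIs of other cells (1.83% at day 7). A 10% mitochondrial limit and marker sums of 5 or 2 left every share within its interval.

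Genes 2-fold higher at days 3, 7, 14 and 28 numbered 51, 95, 100 and 78 with a floor of 100 CPM, where 31, 81, 60 and 62 were lower. Fewer genes were tested there. With the UMI floor of day 7, 145, 208 and 233 were lower at days 3, 14 and 28 and 285 were higher at day 28, on fewer cells. Among genes as high in B cells as in other barcodes, 27, 58, 149 and 77 were higher, and 25 were lower at day 3. Without barcodes rich in UMIs of other cells, 115 were higher at day 7. Averaging over cells, leaving out immunoglobulin UMIs, doublets or genes led by 1 barcode, a marker sum of 5 and *Car4* allowed kept each count within 1.5 times.

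*Ighd* was found in 94.6%, 87.5%, 67.6%, 70.2% and 65.4% of cells with no thinning, in 94.1%, 83.4% and 52.0% of sham, day 3 and day 7 cells at 4000 UMIs, in 67.3%, 44.0%, 16.9%, 36.0% and 26.7% when 2 UMIs were required, and in 29.2% at day 28 with the UMI floor of day 7. Sham was highest and day 3 next under each of these. B cells against T cells gave 790 genes higher and 855 lower with no library block. That fit also tested fewer genes, 9827 against 11078, so the lower counts are not put down to the block alone. With each library left out in turn, 1076 to 1351 were higher and 1126 to 1520 lower. DESeq2 gave 1212 and 1373. The *Car4*, other-cell, top-barcode and at-or-above settings, and the UMI floor for *Ighd*, were chosen after seeing the data. The number of B cells was lowest at day 14, at 104, with 670319 UMIs in all. The median UMIs of a B cell were lowest at day 28, at 3206.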

Other observations

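Some of the largest ratios to sham were shared by B cells, T cells and all other barcodes. *Gm10709*, a predicted gene, stood at 0.832, 603, 435, 185 and 106 CPM in B cells of sham and days 3, 7, 14 and 28, at 0, 649, 411, 139 and 103 CPM in T cells and at 4.11, 332, 287, 85.9 and 49.4 CPM in all other barcodes. *Rpl29*, a ribosomal protein gene, stood at 2056, 1255, 970, 4.48 and 812 CPM in B cells, at 9.67 CPM in T cells of day 14 and at 6.06 CPM in all other barcodes there. *Gdpd3* and the histone gene *Hist1h2ap* stood at 2.98 and 1.49 CPM at day 14 and 1.75 and 2.91 CPM at day 28, against 128 and 50.8 CPM in sham, and were also low in T cells of both libraries. *Gm8730* stood at 488, 484, 34.5, 49.2 and 26.2 CPM. *Apobec3*, a cytidine deaminase that restricts retroviruses, stood at 14.1, 224, 143, 25.4 and 348 CPM in B cells and at 22.5, 151, 113, 26.1 and 189 CPM in T cells. Several of these are predicted genes or have near-identical copies, so how reads were assigned to them is uncertain.

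Of 3 marginal zone genes at 50 CPM or more, 1 was 2-fold lower than sham at day 3, against 2.79% of all genes. None of the 3 differed by 2-fold later when all B cells were counted. None of 3 Toll-like receptor genes differed by 2-fold on any day, against 2.79% to 6.13% of all genes lower and 3.41% to 7.90% higher. Of 4 cytokine genes at that level at day 7, *Ccl4* and *Ccl22* were 2-fold higher, against 6.43% of all genes, at 192 and 180 CPM, and both passed through day 7 alone. Without the barcodes rich in UMIs of other cells, *Ccl4* stood at 79.6 CPM and *Ccl22* at 1.47 CPM there. None of 2 cytokine genes differed by 2-fold at the other times, against 2.79% to 4.55% of all genes lower and 3.41% to 7.90% higher. *Cd9*, a tetraspanin of marginal zone and B-1 cells, stood at 346, 70.8, 195, 185 and 404 CPM in B cells. Without the barcodes rich in UMIs of other cells, *Cd9* stood at 323 CPM in sham and 105 CPM at day 7, over 2-fold lower there. The list of 8 marginal zone genes, *Cd9* among them, summed to 1132, 779, 1122, 700 and 1019 CPM in B cells. All other barcodes held more of it, at 4322, 1186, 1922, 2947 and 4113 CPM, and T cells held 445, 209, 309, 347 and 465 CPM. The part of RNA from other cells in the B cell levels was not tested. *Tlr7*, the receptor for single-stranded RNA, stood at 5.82, 35.9, 17.0, 17.9 and 14.6 CPM, and *Ly86* of the RP105 complex at 204, 370, 249, 227 and 246 CPM. *Il10*, which encodes an anti-inflammatory cytokine that some B cells secrete, was not seen in sham and stood at 9.29, 15.9, 25.4 and 2.91 CPM on days 3, 7, 14 and 28. *Tgfb1* stood at 241, 234, 147, 139 and 158 CPM, and *Ltb* at 712, 805, 554, 548 and 591 CPM. *Vpreb3*, of the transitional set, stood at 345, 243, 65.2, 160 and 222 CPM, a 5.29-fold lower level at day 7 than in sham. *Cd24a*, the most abundant gene of that set, went the other way at day 7. Without the barcodes rich in UMIs of other cells *Cd24a* stood at 197, 197, 326, 297 and 305 CPM, and *Vpreb3* at 359, 250, 73.7, 158 and 239 CPM. The 6 transitional genes summed to 611, 461, 403, 480 and 565 CPM in all B cells. *Cdkn1a*, a p53 target, stood at 27.5, 37.6, 135, 52.2 and 76.9 CPM, and at 26.1, 29.9, 57.5, 42.9 and 25.1 CPM without the barcodes rich in UMIs of other cells, where day 28 was below sham.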
